A study of Homo sapiens with 18 samples.

Results

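The genes described here are the inhibitors, membrane serine proteases and receptors of the pericellular pathway that activates hepatocyte growth factor (HGF) and macrophage-stimulating protein (MSP). They were chosen by gene symbol and make up 7 of the 38055 genes in the table. They are SPINT1 and SPINT2, the genes of the Kunitz inhibitors HAI-1 and HAI-2, then ST14 (matriptase), PRSS8 (prostasin) and HPN (hepsin), and then MET, the HGF receptor, and MST1R, also called RON, the MSP receptor. HCT116 is a human colorectal carcinoma line of epithelial cells, and all libraries came from wild-type (WT) cells of this 1 line and no treatment other than the time and density of culture is named. Whole cell RNA was sequenced as whole transcriptome RNAseq after 3 days (50% confluency) and after 5 days (250% confluency), with 3 libraries per day labelled as biological replicates. The comparison of day 5 with day 3 addresses which transcripts differ when cells are grown past a monolayer, and time since seeding and density cannot be told apart in it.

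Matriptase and prostasin are serine proteases held at the surface of epithelial cells, and each can take part in activating the other. Matriptase and hepsin can cut pro-HGF and pro-MSP into the forms that activate MET and RON, receptor tyrosine kinases that drive growth, scattering and migration. HAI-1 and HAI-2 are transmembrane proteins whose Kunitz domains block these proteases, and in the intestinal epithelium the balance of HAI proteins and matriptase is known for its role in keeping the cell layer intact.

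The depth was 27470978 to 56689369 reads on genes per library, and day 3 held both the deepest and the shallowest library. The 10 most abundant genes took 11.8 to 12.9% of the reads on day 3 and 8.73 to 9.03% on day 5. Epithelial markers were present, and their summed level was 1090 to 1420 CPM (counts scaled by the total reads on genes of each library) on day 3 and 2900 to 2980 CPM on day 5. Of these 8 markers, VIL1 had at most 5 reads in any library and was not tested, EPCAM and KRT20 did not pass the test, and CDH1, KRT8, KRT18, KRT19 and CDX2 were higher on day 5. The summed level of 6 fibroblast markers was 13.7 to 17.8 CPM on day 3 and 33.0 to 35.0 CPM on day 5, nearly all of it COL1A1, while the endothelial, immune and hepatocyte markers summed to at most 2.42 CPM in any library, although VWF, KDR and LYZ were higher on day 5. No marker in the table was at 0 in all 6 libraries, although PTPRC and CDH5 had at most 2 reads in a library. The part of the epithelial markers in the results that follow was not tested. In such bulk RNA, a change in the number of cells that express a gene and a change in RNA per cell cannot be told apart.

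On day 5, all 6 of the genes that could be tested were higher than on day 3, and 4 of them, SPINT1, PRSS8, ST14 and MST1R, were at least 2-fold higher. HPN was near the limit of detection and was not tested. Of all 20129 genes tested with limma, 56.9% passed an adjusted p-value of 0.05 in either direction, 29.3% were higher on day 5 and 10.2% were at least 2-fold higher, so a call alone is common in this comparison. Testing needed 10 or more normalized reads in 3 or more libraries. The scale of all fold changes is log2(normalized reads + 1), which understates the change of low genes.

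**Figure D1:**
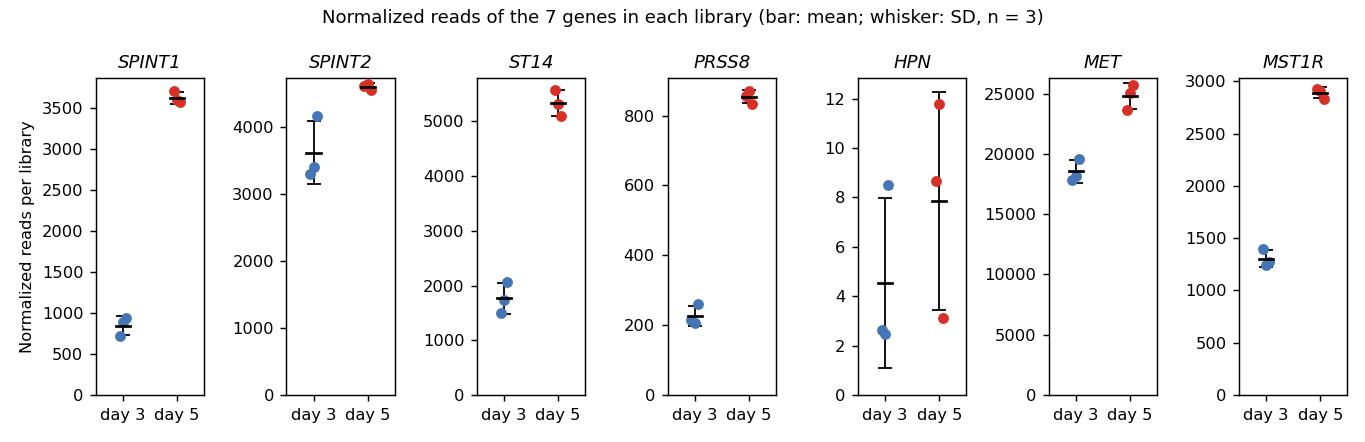
Normalized reads of each of the 7 genes in the 3 day 3 libraries (blue) and the 3 day 5 libraries (red), in replicate order from left to right. The vertical axes are linear, start at 0 and differ between genes, the bar is the mean and the whisker the SD. The days do not overlap for any gene but HPN. Of all tested genes, 65% did not overlap between the days, and 33.4% had every day 5 library above every day 3 library.

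SPINT1 showed the largest rise of the 7 genes. SPINT1 (chr15:40844018-40858207, plus strand, ENSG00000166145, 11 exons in the canonical transcript, with GRCh38 positions here and throughout) had 717.3, 884.6 and 935.6 normalized reads on day 3 and 3709, 3591 and 3569 on day 5. Every day 5 library was therefore above every day 3 library, and the 3 day 5 values lay closer together than those of day 3. The log2 fold change was 2.11 (standard error 0.12, 95% interval 1.82 to 2.39, adjusted p = 0.000172 from limma), which is 4.31-fold. In the order of all tested genes by rise, SPINT1 stood at 201 of 20129. An antisense gene, SPINT1-AS1, overlaps SPINT1 on the opposite strand and was lower on day 5. It had 173.8, 197.8 and 277.8 normalized reads on day 3 and 147.5, 144.7 and 131.5 on day 5, or -0.59 on the log2 scale (limma, adjusted p = 0.0345). This call was lost with replicate number as a block (limma, adjusted p = 0.0699), without a filter (0.101) and without day 3 replicate 2 (0.0595) or day 5 replicate 1, 2 or 3 (0.0664, 0.0717 and 0.0927). Per the methods, counting was strand-specific, so SPINT1 and its antisense gene were counted apart.

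The promoter of SPINT1 is shown because this gene changed most, with the letters of 3 motifs in capitals. The window from RefSeq (GRCh38.p14) is chr15:40843798-40844097 on the plus strand and runs from 250 bases before the annotated start to 49 bases after the start base. The motifs searched on both strands were the GC box GGGCGG, bound by Sp and KLF factors, the hypoxia response core ACGTG and the AP-1 motif TGANTCA.
SPINT1 promoter: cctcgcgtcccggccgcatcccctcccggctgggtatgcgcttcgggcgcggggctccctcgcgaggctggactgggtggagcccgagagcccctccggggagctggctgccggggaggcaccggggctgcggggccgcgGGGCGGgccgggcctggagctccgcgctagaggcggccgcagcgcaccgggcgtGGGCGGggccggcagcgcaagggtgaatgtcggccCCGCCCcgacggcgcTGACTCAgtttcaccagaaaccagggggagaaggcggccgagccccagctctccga
Counting the start base as 0, it held GC boxes at -110 to -105, -56 to -51 and, on the opposite strand, -21 to -16, and an AP-1 motif at -6 to 0. Among 35116 RefSeq promoters of the same length, 45.0% held a GC box, 21.4% the hypoxia core and 7.71% the AP-1 motif. The window was 77.7% G and C, against a median of 58.7% over these promoters. A second SPINT1 start listed by RefSeq, with the window chr15:40844227-40844526, held none of the 3 motifs. The table holds promoters for SPINT1, HPN, MET and MST1R. SPINT2, ST14 and PRSS8 had no entry.

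SPINT2 changed far less than SPINT1. Its normalized reads (chr19:38244035-38292615, plus strand, ENSG00000167642, 7 exons in the canonical transcript) were 3297, 3404 and 4168 on day 3 and 4622, 4648 and 4559 on day 5. The days did not overlap, but the third day 3 library stood well above the other 2 and close to day 5. That library also had the largest sum of normalized reads over all genes. On the log2 scale the change was 0.36 (standard error 0.11, 95% interval 0.09 to 0.62, adjusted p = 0.0335 from limma), which is 1.28-fold. This call depended on the libraries and the fit. Scaled to library totals, the log2 fold change was 0.42 with an adjusted p of 0.0043 (limma). With replicate number as a block the adjusted p was 0.0661, and without a filter on low values it was 0.125 (limma). It was 0.0824 without day 3 replicate 1, 0.1 without day 3 replicate 2, 0.0823, 0.0871 and 0.0747 without day 5 replicate 1, 2 and 3, and 0.00371 without day 3 replicate 3 (limma, adjusted).

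The proteases ST14 and PRSS8 both rose. ST14, the gene of matriptase (chr11:130159782-130210362, plus strand, ENSG00000149418, 19 exons in the canonical transcript), had 1498, 1738 and 2065 normalized reads on day 3 and 5582, 5314 and 5109 on day 5. The lowest day 5 library was more than 2 times the highest of day 3. The log2 fold change was 1.61 (standard error 0.13, 95% interval 1.28 to 1.93, adjusted p = 0.000312 from limma), or 3.04-fold, and the gene stood at 581 of 20129 by rise. PRSS8, the gene of prostasin (chr16:31131433-31135727, minus strand, ENSG00000052344, 6 exons in the canonical transcript), had normalized reads of 214.2, 204.6 and 259.4 on day 3 and 855.7, 871.4 and 833.6 on day 5. The 3 libraries of day 5 were again close together, far above those of day 3. PRSS8 thus rose by 1.92 on the log2 scale (standard error 0.11, 95% interval 1.65 to 2.19, adjusted p = 0.000179 from limma), or 3.78-fold, at 287 of 20129 by rise.

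HPN, the gene of hepsin, a protease best known from liver and prostate, was close to absent. The gene is at chr19:35040506-35066573, plus strand, ENSG00000105707, 13 exons in the canonical transcript. The libraries held 3, 4 and 6 reads of it on day 3 and 8, 11 and 3 reads on day 5, as recovered from the normalized values. The days overlapped, and a difference was not detectable at this depth. With no filter on low values the log2 fold change was 0.69 with an adjusted p of 0.475 (limma), and DESeq2 on the recovered reads gave an adjusted p of 0.449.

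MET was the most abundant of the 7 genes on both days and changed by the least after SPINT2. Its normalized reads (chr7:116672196-116798377, plus strand, ENSG00000105976, 21 exons in the canonical transcript) were 17854, 18175 and 19608 on day 3 and 23592, 25041 and 25677 on day 5. All day 5 libraries were above those of day 3, with a gap that was larger than the range within either day. The log2 fold change was 0.42 (standard error 0.08, 95% interval 0.22 to 0.61, adjusted p = 0.00576 from limma), or 1.34-fold, at 6041 of 20129 by rise. MST1R, the other receptor (chr3:49887002-49903873, minus strand, ENSG00000164078, 20 exons in the canonical transcript), had 1400, 1245 and 1269 normalized reads on day 3 and 2929, 2910 and 2831 on day 5. Every day 5 value was more than 2 times every day 3 value. The rise on the log2 scale was 1.15 (standard error 0.08, 95% interval 0.95 to 1.35, adjusted p = 0.00023 from limma), or 2.22-fold, at 1549 of 20129 by rise.

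The promoter windows of both receptors are shown as well. They are chr7:116671946-116672245 on the plus strand for MET and chr3:49903824-49904123 on the minus strand for MST1R (RefSeq, GRCh38.p14), with the same motifs in capitals.
MET promoter: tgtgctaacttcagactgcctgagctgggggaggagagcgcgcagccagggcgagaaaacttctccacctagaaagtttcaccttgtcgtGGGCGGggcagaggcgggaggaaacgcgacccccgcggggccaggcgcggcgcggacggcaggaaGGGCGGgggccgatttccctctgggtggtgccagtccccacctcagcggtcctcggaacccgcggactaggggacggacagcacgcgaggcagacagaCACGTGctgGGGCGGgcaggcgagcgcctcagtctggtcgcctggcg
MST1R promoter: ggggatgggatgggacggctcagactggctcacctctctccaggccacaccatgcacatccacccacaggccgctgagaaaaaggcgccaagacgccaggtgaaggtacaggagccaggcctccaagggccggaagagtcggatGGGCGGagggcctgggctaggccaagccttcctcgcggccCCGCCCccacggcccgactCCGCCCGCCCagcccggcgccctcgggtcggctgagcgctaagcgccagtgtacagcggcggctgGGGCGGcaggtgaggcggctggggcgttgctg
MET held GC boxes at -160 to -155, -95 to -90 and 12 to 17, and the letters CACGTG after the start, which contain the hypoxia core on both strands at 3 to 7 and 4 to 8. MST1R held 5 GC boxes, of which those at -47 to -42 and -43 to -38 overlap, and neither of the other motifs. GC boxes were present in the first SPINT1 window, in those of MET and MST1R, and in that of HPN with 2 of them. A link between these motifs and the changes was not tested. All 4 of these windows were rich in G and C, from 69.3 to 77.7%. A match describes letters and does not show binding.

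**Figure D2:**
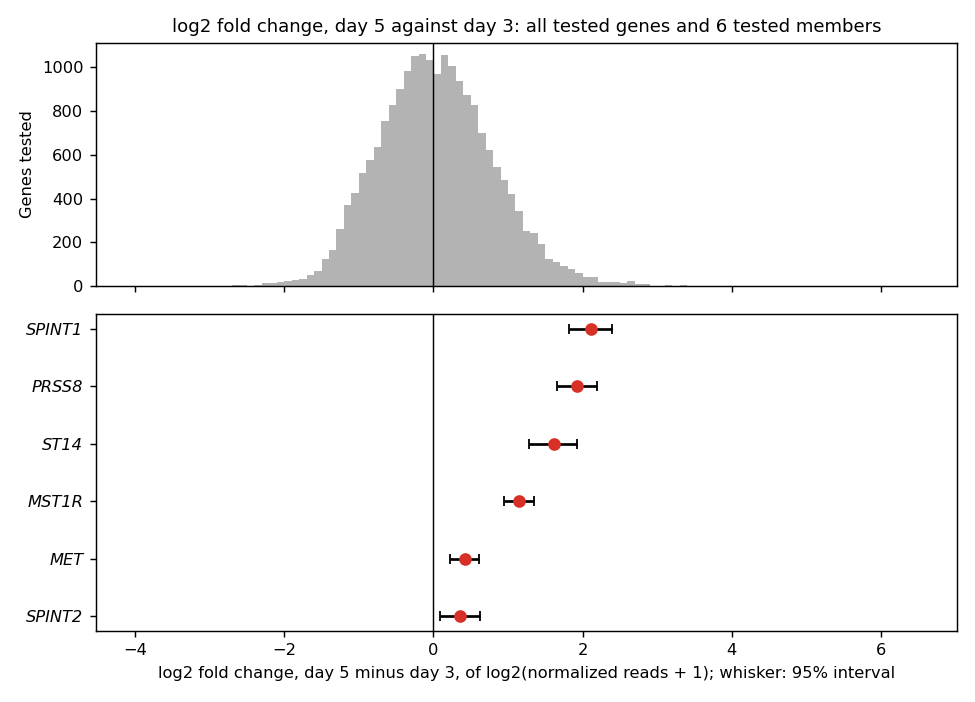
The upper panel counts all 20129 tested genes by log2 fold change, day 5 against day 3, in steps of 0.1, and the lower panel gives the 6 tested genes with 95% intervals from limma. SPINT1, PRSS8 and ST14 sit in the right tail of all genes, between 1.61 and 2.11, and MET and SPINT2 near its centre, at 0.42 and 0.36.

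The levels of the 7 genes could be set against each other only per length, as RPKM, in which reads are divided by the length of all exons of the gene joined and by the depth of the library. Whether reads in introns were counted is not stated, and such reads would raise the level of long genes. On day 3, MET stood at 71.4 ± 1.53 RPKM (SD, n = 3 libraries), followed by SPINT2 at 19.7 ± 1.13, ST14 at 11.9 ± 1.10, MST1R at 6.93 ± 0.829, SPINT1 at 6.62 ± 0.602, PRSS8 at 2.11 ± 0.139 and HPN at 0.0361 ± 0.0247. MST1R and SPINT1 overlapped between libraries, and the other neighbours in this order did not. On day 5, MET was at 99.9 ± 3.48 RPKM (SD, n = 3), ST14 at 37.8 ± 2.11, SPINT1 at 29.8 ± 0.918, SPINT2 at 26.4 ± 0.613, MST1R at 16.0 ± 0.501, PRSS8 at 8.36 ± 0.292 and HPN at 0.0680 ± 0.0385, with no overlap between neighbours. The place of SPINT2 depended on the length used, since its joined exons span 5085 bases and its canonical transcript 1688. A protein-coding gene that was not analysed here, ENSG00000267748, overlaps SPINT2 on the same strand. Any reads of that gene could have been counted with SPINT2, also in the ratios to SPINT2. With canonical lengths, chosen after seeing the data, SPINT2 was second to MET on both days, at 59.5 ± 3.42 RPKM on day 3 and 79.6 ± 1.85 on day 5 (SD, n = 3), and on day 5 ST14 was at 47.1 ± 2.63 and SPINT1 at 35.5 ± 1.09. With either length MET was first and PRSS8 and HPN were last on both days, and ST14 was above SPINT1.

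Ratios within a library show the balance of inhibitor and protease transcripts without any scaling between libraries. Per length of joined exons, SPINT1 transcripts were 0.336 ± 0.0326 (SD, n = 3) times those of SPINT2 on day 3 and 1.13 ± 0.0219 times on day 5. With canonical lengths this ratio was 0.133 ± 0.0129 on day 3 and 0.445 ± 0.00864 on day 5, so which of the HAI transcripts was more abundant on day 5 depends on the length, while the change between the days does not. ST14 was 1.80 ± 0.105 times SPINT1 on day 3 and 1.27 ± 0.0322 times on day 5, so the protease stayed above this inhibitor by a smaller margin. ST14 was 0.601 ± 0.0360 times SPINT2 on day 3 and 1.43 ± 0.0558 times on day 5, or 0.249 ± 0.0149 and 0.591 ± 0.0231 times with canonical lengths, which leave ST14 below SPINT2 on both days. PRSS8 was 0.107 ± 0.00417 times SPINT2 on day 3 and 0.316 ± 0.00395 times on day 5, or 0.0574 ± 0.00224 and 0.170 ± 0.00213 times with canonical lengths. The ratio of PRSS8 to SPINT1 was 0.320 ± 0.0410 on day 3 and 0.281 ± 0.00746 on day 5, with overlapping libraries. MET was 10.4 ± 1.00 times MST1R on day 3 and 6.24 ± 0.370 times on day 5.

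On the log2 scale these 6 ratios changed by 1.75 for SPINT1 to SPINT2, -0.50 for ST14 to SPINT1, 1.25 for ST14 to SPINT2, -0.19 for PRSS8 to SPINT1, 1.56 for PRSS8 to SPINT2 and -0.73 for MET to MST1R. For 5 of the 6 ratios the days did not overlap, and each had p = 0.1 in a two-sided exact permutation test, which is the least this test can give with 3 libraries a day (adjusted over the 6 ratios by Benjamini-Hochberg, 0.12). For PRSS8 to SPINT1 the exact permutation p was 0.3, and 0.3 adjusted. Among all 20129 tested genes, 65.0% had normalized reads that did not overlap between the days. That share is of single genes, and none was computed for ratios.

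**Figure D3:**
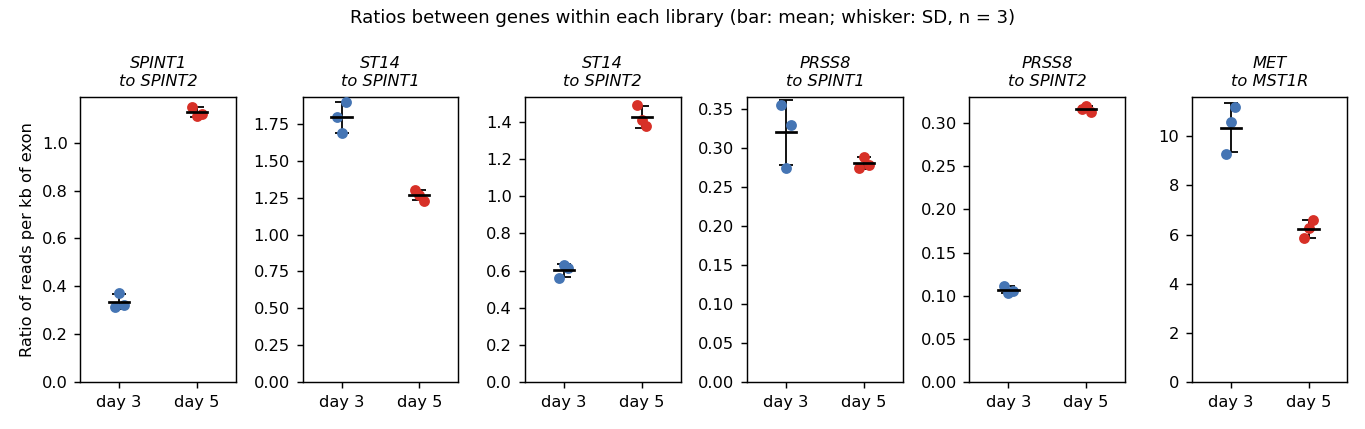
Ratio of reads per kilobase of joined exons between pairs of the genes within each library, for day 3 (blue) and day 5 (red), with the mean as a bar and the SD as a whisker (n = 3). The ratio of SPINT1 to SPINT2 was higher on day 5, 1.13 against 0.336, as was that of ST14 to SPINT2, 1.43 against 0.601, and with canonical transcript lengths both are below 1 on both days.

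Sites for 6 microRNAs (miRNAs) were looked up in the 3′UTRs because the study asks whether repression by miRNAs is relieved at high density. The study examined expression of its candidate targets on day 7 against day 3. It reports a significant shift of AGO2, the protein that miRNAs guide, to the nucleus only later than day 5. It also reports that TNRC6A protein, a partner of AGO2, was already reduced after 5 days, when AGO2 was similar in cytoplasm and nucleus. Its methods name a comparison of exon and intron reads for day 5 against day 3 as well. The day 5 values here do not test that question, and other abundant miRNA families that the study used were not searched. The search covered the 7 canonical GENCODE transcripts and the seeds of let-7a-5p, miR-21-5p, miR-100-5p, miR-92a-3p and miR-191-5p, which stand for 5 families, and of miR-34a-5p, which is known to target MET. A site was a match to miRNA bases 2 to 8, or to bases 2 to 7 followed by A. SPINT1 held 2 matches to let-7a-5p and MET held 2 to miR-34a-5p, and the other 5 genes held none for any of the 6. The sites are shown with the seed of each miRNA and its match in capitals.
let-7a-5p: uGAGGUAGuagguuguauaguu
SPINT1 site at chr15:40858001-40858007: gtgcacaggcaccttggctcCTACCTCcat
SPINT1 site at chr15:40858162-40858168: cacccctgcatttgttcaagCTACCTCccg
miR-34a-5p: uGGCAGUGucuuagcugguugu
MET site at chr7:116796175-116796181: actttgtccaatggttttttCACTGCCtga
MET site at chr7:116798289-116798295: tctaagaattagatacttgtCACTGCCtat
The SPINT1 matches start at bases 1026 and 1187 of a 3′UTR of 1232 bases. Of 2627 3′UTRs within 25% of this length, 12.9% held a let-7a-5p site. The MET matches start at bases 51 and 2165 of 2253, and 29.7% of 2819 3′UTRs of like length held a miR-34a-5p site. The remaining 3′UTRs are short, from 286 bases in HPN to 609 in SPINT2. Whether any of these sites is occupied was not tested. For ST14, PRSS8 and MST1R, at most 11% of 3′UTRs of like length held a site for any 1 of these seeds. Their lack of a site therefore says little, and a part of miRNAs in their rise was not tested.

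The rest of the pathway was described with 6 lists holding 81 genes of known function in it. Of the 75 genes in the table, 54 were tested, of which 39 were higher on day 5, 1 was lower and 14 did not pass the threshold. Over all tested genes 29.3% were higher, and this share is the background for each list below. The lists were chosen with earlier results of these data known, so their counts are not a test of the pathway. Among the 39, KLK5 and TMPRSS13 reached 10 normalized reads on day 5 alone and entered the test through it. TPSG1, SPINT3, SPINT4, TFPI2 and SPINK1 were listed and not analysed here.

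Most tested genes for ligands and their activators were higher on day 5. Of 9 genes tested in this list of 14, 6 were higher, none was lower and 3 did not pass (median log2 fold change 0.92, against 0.011 over all tested genes). Of the 6, KLK5, a secreted kallikrein, passed the filter through its day 5 libraries alone and so had to be higher there. HGF, the ligand of MET, was not analysed here. MST1, which encodes MSP, had 49.2, 43.3 and 49.6 normalized reads on day 3 and 100.9, 95.4 and 76.6 on day 5, or 0.92 higher on the log2 scale (limma, adjusted p = 0.00163). MST1 has closely similar copies in the genome, so its reads are uncertain. PLAUR, the urokinase receptor, had the largest rise of the list at 2.61 (limma, adjusted p = 8.27e-05). F10, coagulation factor X, rose by 1.82 and PLAU, the urokinase that can activate pro-HGF, by 1.19 (limma, adjusted p = 0.000562 and 0.00036).

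Few of the other membrane-anchored serine proteases were expressed. Of 16 listed genes, 15 were in the table and 5 were tested, with 3 higher and 2 that did not pass. Those 2 were CORIN, the gene with the most reads in this list, and TMPRSS5. Their log2 fold changes were 0.29 and -0.00 (limma, adjusted p = 0.0912 and 0.991). PRSS22, a tryptase relative, is in this list although its protein is secreted. It had 53.6, 60.6 and 69.5 normalized reads on day 3 and 175.7, 158.6 and 138.8 on day 5, or 1.35 higher on the log2 scale (limma, adjusted p = 0.000526). TMPRSS13, which can activate prostasin, and TMPRSS4 were at most 21.4 and 31.1 normalized reads in any library. Their log2 fold changes were 2.13 and 1.06 (limma, adjusted p = 0.027 and 0.0288). TMPRSS13 passed the filter through day 5 alone, so it was tested only because it was high there and its call is no support for a rise. The TMPRSS13 call was lost without day 3 replicate 2 or 3 (limma, adjusted p = 0.0734 and 0.0783), and that of TMPRSS4 without day 3 replicate 1 or 3 or day 5 replicate 1 (limma, adjusted p = 0.0643, 0.081 and 0.0628). Without a filter on low values both were lost (limma, adjusted p = 0.0713 and 0.0785), and DESeq2 gave an adjusted p of 0.0728 for TMPRSS4. The count of higher genes in the list fell from 3 to 1 without day 3 replicate 3 or day 5 replicate 1.

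Other inhibitors of serine proteases rose as well. Of 14 listed genes, 10 were in the table and 7 were tested, with 6 higher and TFPI not past the threshold (median log2 fold change 0.93). SERPINA1, which encodes alpha-1 antitrypsin, had 15.80, 17.93 and 34.02 normalized reads on day 3 and 93.3, 101.8 and 93.2 on day 5, which do not overlap. SERPINA1 rose by 2.12 and APP, a Kunitz domain protein in some of its isoforms, by 1.12 (limma, adjusted p = 0.00129 and 0.000438).

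Known substrates and partners of matriptase and prostasin gave the highest median of the 6 lists, 1.57, with 6 of 7 tested genes higher out of 11 listed. CDCP1, a surface protein that matriptase can cleave, had 3561, 4267 and 4828 normalized reads on day 3 and 17863, 19443 and 20253 on day 5. CDCP1 rose by 2.19 and SCNN1A, the alpha subunit of the sodium channel that prostasin activates, by 1.90 (limma, adjusted p = 0.000188 and 0.000162). SCNN1B and SCNN1G, the listed genes of other subunits of this channel, had at most 13 and 3 reads in a library and were not tested. EPCAM, a substrate of matriptase and an epithelial marker, was the 1 tested gene that did not pass. It had 6932, 7346 and 7403 normalized reads on day 3 and 7048, 7271 and 7389 on day 5, values that overlap. On the log2 scale the difference was 0.00 (limma, adjusted p = 0.982).

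Downstream of the receptors, 8 of 12 adaptors and effectors were higher and 4 did not pass (median log2 fold change 0.68). GAB1, the docking protein of MET, had 246.7, 234.9 and 211.2 normalized reads on day 3 and 476.1, 552.0 and 584.0 on day 5, or 1.21 higher on the log2 scale (limma, adjusted p = 0.000417). STAT3 rose by 1.10 and the kinase gene SRC by 0.96 (limma, adjusted p = 0.00055 and 0.0003). The 4 genes that did not pass, CRK, PTPN11, PIK3R1 and PIK3CA, had log2 fold changes between -0.14 and 0.14.

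Among 14 co-receptors, sheddases and negative regulators, 10 were higher, 1 was lower and 3 did not pass (median log2 fold change 0.66). ITGB4, an integrin chain that can act with MET, had 2295, 2652 and 2596 normalized reads on day 3 and 26736, 28733 and 29812 on day 5, or 3.50 higher on the log2 scale (limma, adjusted p = 7.05e-05). CBL, the ubiquitin ligase that sends MET to degradation, rose by 1.24 and CD44, a co-receptor, by 1.13 (limma, adjusted p = 0.000353 and 0.000222). PTPN2, a phosphatase that acts on MET, was the 1 gene of all lists called lower on day 5, by 0.67 on the log2 scale (limma, adjusted p = 0.00122). Of the 3 that did not pass, ADAM10 and ADAM17, the proteases that can shed the MET ectodomain, had log2 fold changes of 0.01 and -0.08, and TIMP3, an inhibitor of such proteases, 0.48. Their adjusted p-values from limma were 0.907, 0.378 and 0.0793.

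**Figure D4:**
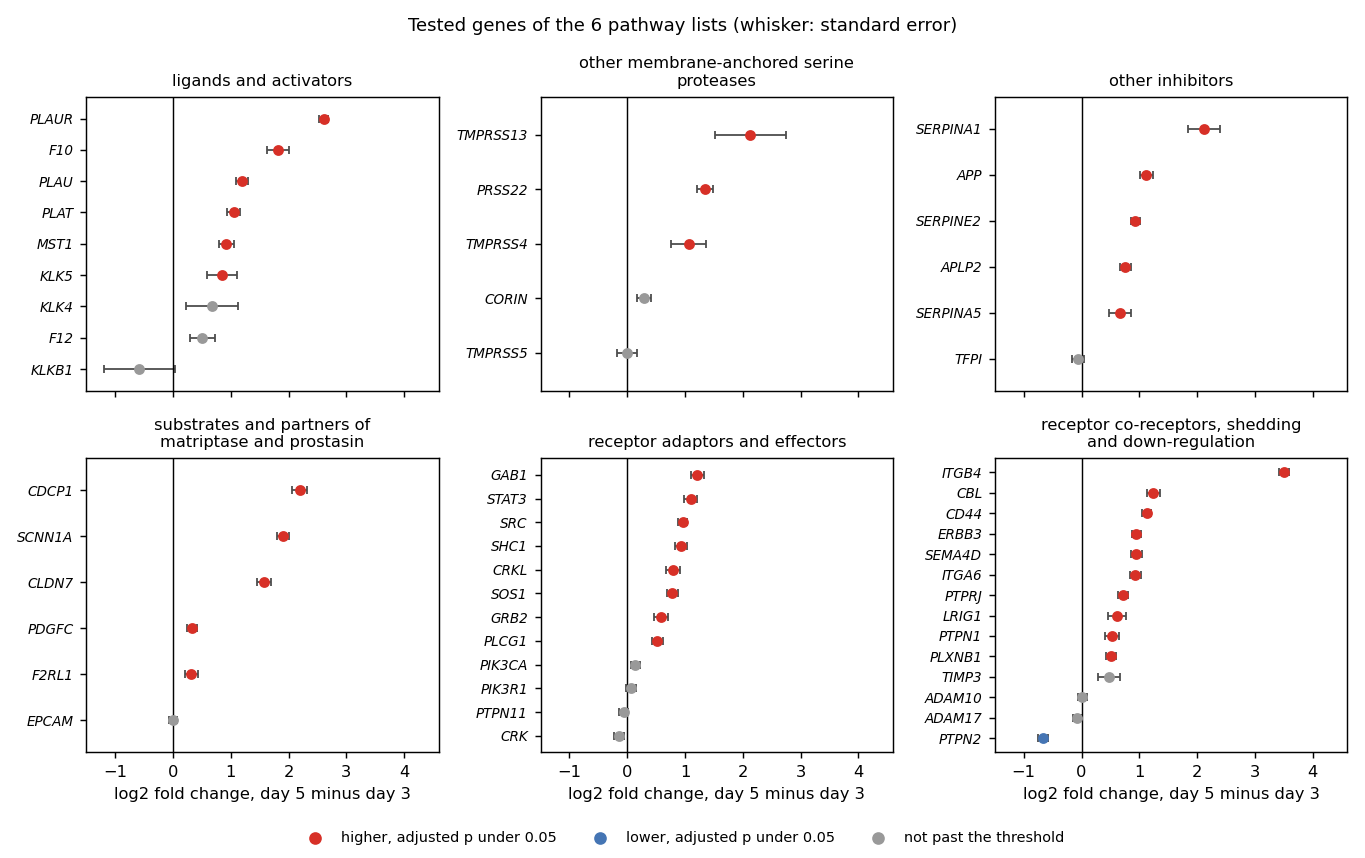
log2 fold change with its standard error, day 5 against day 3, for 52 of the 54 tested genes of the 6 lists, in red where higher and blue where lower at an adjusted p-value under 0.05 from limma and in grey otherwise. PTPN2 is the 1 blue point, at -0.67, and ITGB4 lies furthest right among those plotted, at 3.50.

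Profiles over the 6 libraries were compared with those of 12715 genes that averaged at least 100 normalized reads, by the distance between log2 profiles after each was centred on its own mean. The nearest to SPINT1 were GYS1, a glycogen synthase, and MUC3A, an intestinal mucin, at distances of 0.135 and 0.141. For ST14 they were PSAP, which encodes a lysosomal precursor, and PKP3, a desmosome protein (0.0977 and 0.105), and for PRSS8 they were TNIP1 and the tight junction gene TJP3 (0.135 and 0.186). RHBDF2 and SGSM1 were nearest to MST1R (0.0522 and 0.077). Within a wider distance of 0.5 lay 3686 genes for MET and 3447 for SPINT2, the tested members that changed least. The counts were 1229 for MST1R, 516 for ST14, 232 for PRSS8 and 148 for SPINT1. WASH8P is a pseudogene with close copies, so its reads are uncertain. MET was nearest to BABAM2 and WASH8P (0.0539 and 0.0547) and SPINT2 to CMTM7 and ERGIC3 (0.0595 and 0.0607). Such a likeness over 6 libraries is mostly that of the same difference between the days.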

How the data were processed

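Whole transcriptome RNAseq libraries of HCT116 cells were used, 3 from day 3 and 3 from day 5, grouped by the sample labels; day 7 and small RNA values were not used here. The authors depleted rRNA, ligated UMI adapters, and mapped reads strand-specifically to ENSEMBL genes of hg38 in CLC Genomics Workbench; the methods name TMM. The deposited signal values are reads divided by 1 factor per library: 100% were whole multiples of 1 read (within 0.02 reads), and reads were recovered. The deposited table also holds the authors' fold changes and p-values, which were not used.

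limma (version 3.58.1, R 4.3.3) was fitted to log2(value + 1) of 20129 genes with Benjamini-Hochberg adjustment. Levels per length used all exons of a gene joined, with canonical transcript lengths as an alternative added later. Ratios were compared by exact permutation tests. Alternatives were library totals, no filter, a pseudocount of 0.1, a replicate block, leaving out each library, a 2-fold minimum, edgeR (version 4.0.16) and DESeq2 (version 1.42.0) on recovered reads. The fits were tested on simulated data. GENCODE release 44 (GRCh38) gave the loci, exon lengths and 3′UTRs, found for 35597 of 38055 genes by identifier. Python 3.11.15, pandas 2.3.3, numpy 2.4.6 and matplotlib 3.10.9 handled tables and figures. The genes, lists and motifs were chosen with earlier results of these data known. Named were all 7 genes, MST1, and from each list up to 3 genes with the largest rise and fall past the threshold, plus the 2 nearest profiles per gene; 2 list genes that this rule picked are counted and are not reported here; EPCAM, KLK5, SPINT1-AS1 and the list genes that did not pass were named after their values were seen. Nothing in the labels ties the libraries to separate thaws or days, so p-values measure the spread between these libraries.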

Additional observations from a re-analysis of the deposited data

How the results depend on the processing

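The log2 fold changes of SPINT1, ST14, PRSS8 and MST1R kept their direction and their call under all 13 alternatives, and that of MET under all but the 2-fold minimum, where its 0.42 fell short. Leaving out single libraries gave 1.99 to 2.18 for SPINT1, 1.49 to 1.72 for ST14, 1.85 to 2.02 for PRSS8, 1.12 to 1.20 for MST1R and 0.39 to 0.46 for MET. SPINT2, at 0.36, lost its call without a filter, with the replicate block (limma, adjusted p = 0.0661) and with the 2-fold minimum. It also lost it in 5 of 6 fits without 1 library, which gave 0.29 to 0.46, and kept it on library totals, with a pseudocount of 0.1, in edgeR and in DESeq2. The cause was not tested. The 2-fold minimum moved the count of genes called from 11450 to 3589, and leaving out 1 library gave 9780 to 11300. The changes of the ratios kept their direction in every alternative run, and without single libraries they were 1.70 to 1.83 for SPINT1 to SPINT2, -0.54 to -0.46 for ST14 to SPINT1, 1.20 to 1.28 for ST14 to SPINT2, -0.29 to -0.11 for PRSS8 to SPINT1, 1.54 to 1.59 for PRSS8 to SPINT2 and -0.81 to -0.67 for MET to MST1R. The length of a gene cancels in these changes, but with canonical transcript lengths, an alternative chosen after seeing the data, the ratios to SPINT2 themselves moved and those of SPINT1 and ST14 on day 5 fell from 1.13 to 0.445 and from 1.43 to 0.591. With the replicate block the changes of the ratios were the same, with an exact permutation p of 0.5 for PRSS8 to SPINT1 and of 0.25, the smallest for 3 pairs, for the other 5. Same-numbered libraries of the days showed little shared deviation (correlations of -0.011, 0.034 and 0.023), and day 3 replicates 1 and 3 correlated best with another number. Such weak correlations cannot show whether the libraries were paired by design, which the labels do not state. The block left 10533 genes called. Of the 20 list genes that the naming rule picked, 18 kept their call in every alternative other than the 2-fold minimum and the exceptions were TMPRSS4 and TMPRSS13. TMPRSS13 was no longer tested when a day 5 library was left out. Depth limits HPN, at 3 to 11 reads per library.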
